A study of Mus musculus with 18 samples.

Results

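The transcripts described here belong to 9 mouse genes that move, store or sense iron, with the transferrin receptor gene Tfrc at their head: Tfrc, Steap3, Slc11a2, Fth1, Ftl1, Slc40a1, Hmox1, Ireb2 and Aco1. They were chosen by name, as the rows of the count table whose Ensembl identifiers carry these symbols, and make up 9 of 55487 genes in the table. All 9 passed the filter on low counts, as did 13865 genes in all. Mouse embryonic fibroblasts (MEFs), which are cultured connective tissue cells taken from embryos, were plated and kept for 24 h in growth medium that held no added uracil (control), 10 µM uracil or 30 µM uracil. The study sequenced 6 libraries per dose, each of total RNA depleted of ribosomal RNA, numbered 1 to 6 at every dose. The study's methods call the samples of a dose biological replicates. No genotype, strain or embryo age is given in the labels, nor whether a number is shared by cultures of different doses. The study also followed the trafficking of the transferrin receptor protein in uracil-treated fibroblasts, and the comparison here asks whether the transcripts of the receptor and of its iron handling partners differed with dose.

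Counts assigned to genes ranged from 3963932 to 20775298 per library. In 15 libraries, between 1.72% and 3.59% of read pairs had not aligned, but in 3 libraries this share was over 5%: 54.2% in control replicate 1, 37.9% for replicate 6 of the 30 µM dose and 5.24% for replicate 6 of the 10 µM dose. These 3 libraries stood apart for several of the iron genes, so each result is given with and without them. The study's methods state that a vehicle sample and a 30 µM sample were left out of its analysis for contamination with human RNA. Fibroblast markers were high in every library, with a summed level of 28414 to 60956 CPM for 10 genes, where CPM are counts scaled to a common effective library size. Markers of 5 other cell types were low: the summed level of 10 macrophage markers was at most 7.57 CPM, that of 9 erythroid markers at most 0.246 CPM, that of 6 endothelial markers at most 12.03 CPM, that of 6 skeletal muscle markers at most 30.6 CPM, and that of 8 epithelial and mesothelial markers between 83.8 and 264.5 CPM. In the 3 libraries over 5%, all 9 erythroid markers and 5 of the 10 macrophage markers had no count. Of the erythroid markers, 5 had no count in the 15 others either. Control replicate 1 and 30 µM replicate 6 were also the libraries with the fewest counts assigned to genes, 3963932 and 7392564.

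Cells take up iron bound to transferrin through the transferrin receptor, which is carried into endosomes and recycled to the cell surface. In the endosome the ferric iron is reduced by STEAP3 and moved into the cytosol by the transporter DMT1 (the product of Slc11a2). Iron that is not used is stored inside ferritin, a shell of heavy (Fth1) and light (Ftl1) chains, or leaves the cell through ferroportin (Slc40a1), and haem oxygenase 1 (Hmox1) frees iron from haem. Much of the control lies in the transcripts themselves. When iron is scarce, the iron regulatory proteins IRP1 (the product of Aco1) and IRP2 (the product of Ireb2) bind a short stem loop, the iron responsive element. Binding near the start of a transcript blocks its translation, and binding near the end of the Tfrc transcript protects it from decay. Of these outputs, RNA sequencing reads the amount of each transcript and not its translation.

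The stem loops in the annotated transcripts of these genes are shown because they mark which members can be controlled at the level of RNA stability, which a count can register, and which at the level of translation, which it cannot. The search, on the transcript strand only, was for a C, then 5 bases, then the loop CAGTGN, then 5 bases able to pair with the first 5 (G with U allowed). It was made in 1 canonical transcript per coding gene of the GENCODE M39 annotation. Of 21770 coding genes, 289 (1.33%) held a match with all 5 pairs, and 149 (0.684%) held one in an untranslated region (UTR). Among the 9 iron genes, 4 held such a match, all of them in a UTR: Fth1, Ftl1, Slc40a1 and Tfrc. Slc11a2 held a match with 4 of the 5 pairs in the 3′ UTR of a transcript other than the canonical one, a weaker form that 10.8% of coding genes held somewhere in their canonical transcript. For Ireb2, Aco1, Hmox1 and Steap3 no match with all 5 pairs was found, which says only that these letters were not in their canonical transcripts. Among the 9 genes, matches with 4 pairs and other transcripts were listed for Slc11a2 alone. In the sequences below, written 5′ to 3′ as DNA in windows of 29 bases on GRCm39, capitals mark the 6 bases of the loop.
Fth1, 5′ UTR, chr19:9960097-9960125, plus strand: tcctgcttcaaCAGTGCttgaacggaacc
Ftl1, 5′ UTR, chr7:45109202-45109230, minus strand: tcttgcttcaaCAGTGTttgaacggaaca
Slc40a1, 5′ UTR, chr1:45964624-45964652, minus strand: aacttcagctaCAGTGTtagctaagtttg
Slc11a2, 3′ UTR, chr15:100293033-100293061, minus strand: gccatcagagcCAGTGTgtttctatggtt
Tfrc, 3′ UTR, chr16:32450038-32450066, plus strand: attatcggaagCAGTGCcttccataatta
Tfrc, 3′ UTR, chr16:32450417-32450445, plus strand: attatcgggagCAGTGTcttccataatgc
Tfrc, 3′ UTR, chr16:32450482-32450510, plus strand: tatatcggagaCAGTGAtctccatatgtt
Tfrc, 3′ UTR, chr16:32450529-32450557, plus strand: attatcgggaaCAGTGTttcccataattt

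The 9 transcripts covered a wide range of levels in these fibroblasts. Levels between genes were compared as CPM per kilobase of the canonical transcript, as the mean ± SD of the 15 libraries with at most 5% unaligned. The ferritin chains stood at the top, with Ftl1 at 1760 ± 73.8 and Fth1 at 216 ± 23.6 CPM per kilobase. Hmox1 followed at 57.3 ± 3.08. Aco1 at 24.6 ± 1.22 and Tfrc at 24.0 ± 1.15 could not be separated, since the ranges of the 15 libraries overlapped. Slc11a2 lay below them at 14.2 ± 0.855, and Ireb2 at 6.87 ± 1.18 and Steap3 at 6.19 ± 0.472 overlapped with each other. Ferroportin was the lowest, at 0.448 ± 0.114 CPM per kilobase, and rested on 13 to 34 counts per library. Every other neighbouring pair in this order was separated without overlap in these 15 libraries.

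**Figure D1:**
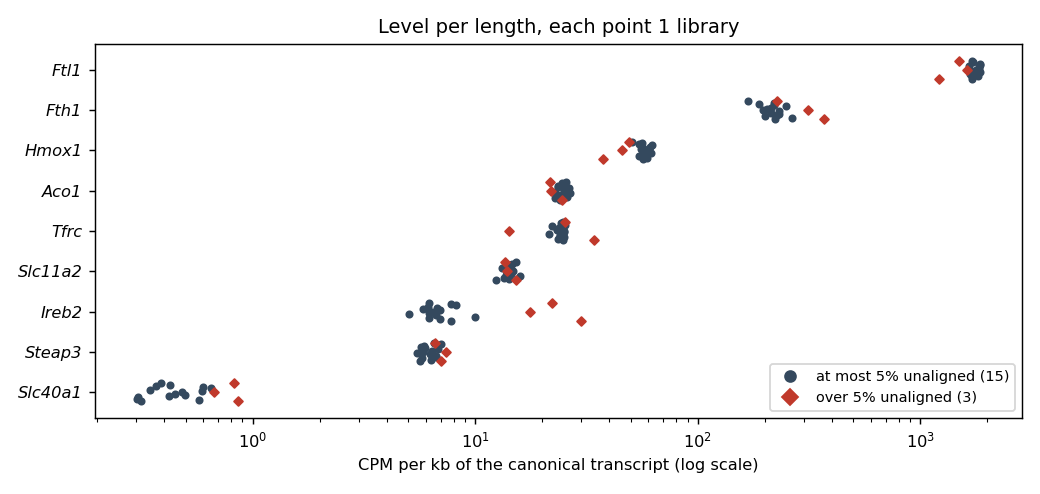
Level of the 9 iron handling genes per length, in CPM per kilobase of the canonical transcript on a log axis, with 1 point per library (circles, 15 libraries with at most 5% unaligned; diamonds, 3 libraries over 5%). Ftl1 lies furthest to the right and Slc40a1 furthest to the left, the circles of Aco1 and Tfrc cover the same range, and the 3 diamonds of Ireb2 lie right of all of its circles.

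The spread of each gene over the 15 libraries was set beside the spread that counting alone would give. For Tfrc the coefficient of variation was 4.78% against 2.38% from counting, and for Ftl1, Hmox1, Aco1, Slc11a2 and Steap3 it lay between 4.19% and 7.64%. Fth1 and Ireb2 varied more, at 10.9% and 17.2%, where counting gave 1.82% and 4.12%. Slc40a1 had the widest spread, 25.5%, where counting alone would give 21.3%. Over all 18 libraries the coefficient of variation of Tfrc was 14.9% and that of Ireb2 was 70.0%.

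No iron handling gene passed the test for a difference with the dose of uracil. In edgeR's quasi-likelihood test with Benjamini-Hochberg adjustment over all 13865 genes, 0 of the 9 passed an adjusted p of 0.05 in either dose against control, in 30 µM against 10 µM, or in the test of any dose difference. The background was the same, with 0% of all genes called in each of these comparisons. Without adjustment, 0 of the 9 had a p under 0.05 in the fit of all 18 libraries, in which 0.692% of all genes did so at 10 µM and 4.29% at 30 µM, and 1.53% in the test of any dose. DESeq2 also called 0 genes in either dose. In bulk RNA, fewer cells with a transcript and less of it per cell cannot be told apart. The median log2 fold change of the 9 genes was -0.015 at 10 µM and 0.014 at 30 µM, beside 0.006 and 0.012 over all genes.

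**Figure D2:**
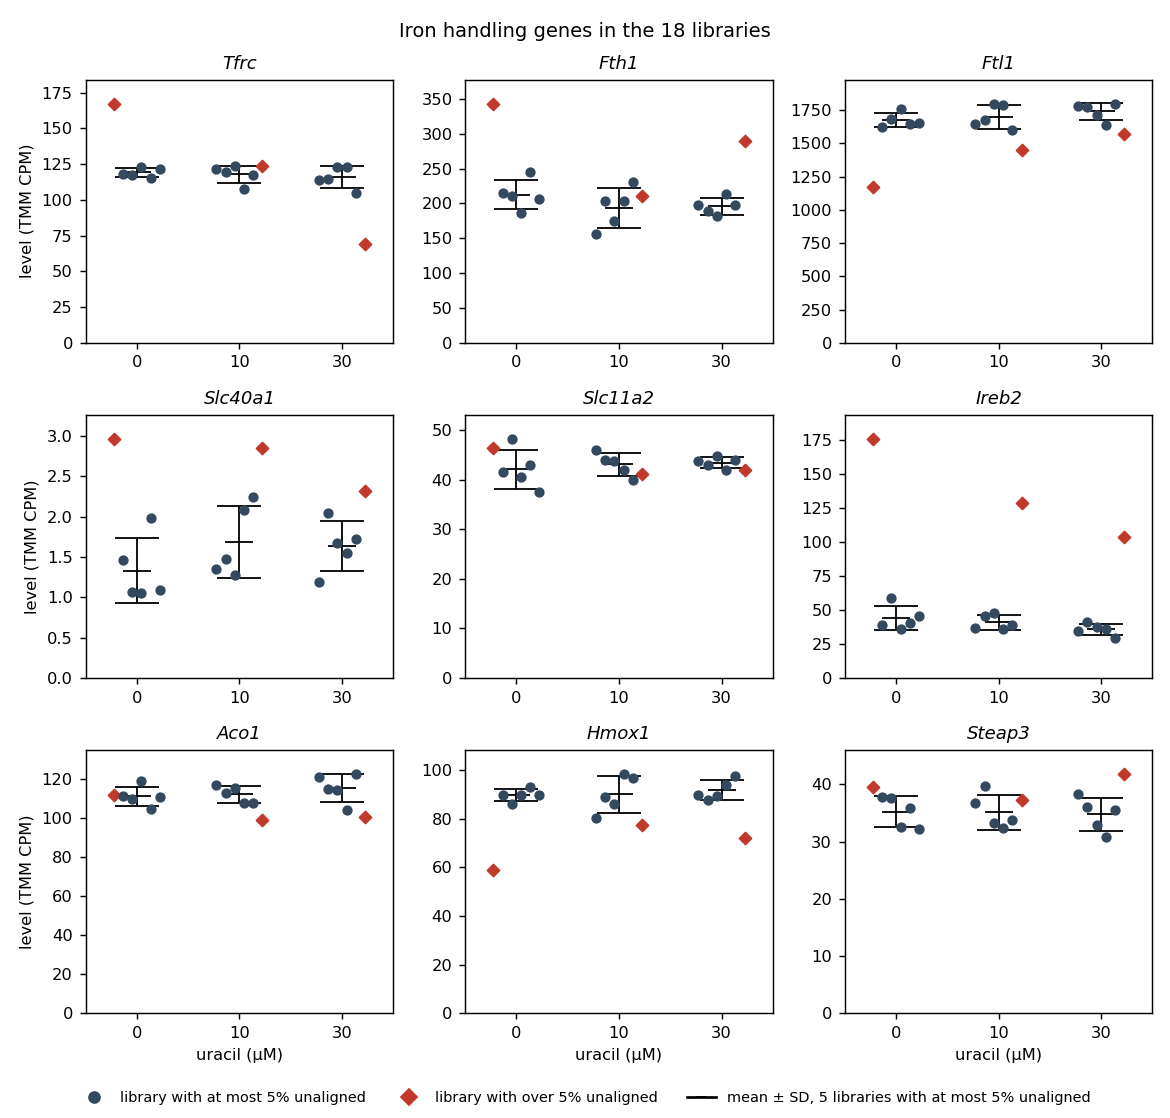
Level of each iron handling gene in CPM (linear axis from 0, scaled by TMM) in every library against the dose of uracil in µM. Circles are libraries with at most 5% unaligned, diamonds the 3 libraries over 5%, and bars the mean ± SD of the 5 circles of a dose. The circles of the 3 doses overlap for every gene, and the diamonds lie apart from them for Ireb2, Ftl1, Hmox1 and Slc40a1 at every dose.

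Tfrc (ENSMUSG00000022797, GRCm39 chr16:32427556-32451612, plus strand), the receptor itself, had a mean level of 127 ± 19.9 CPM in control (SD, n = 6 libraries). With uracil its mean was 119 ± 5.92 CPM at the lower and 108 ± 20.2 CPM at the higher dose, each again from 6 libraries. The lowest, median and highest control libraries held 115, 119.9 and 167 CPM. At 10 µM they held 108, 120.3 and 124 CPM, and at 30 µM they held 69.2, 114 and 123 CPM. The control library at 167 CPM and the 30 µM library at 69.2 CPM were those with 54.2% and 37.9% unaligned, and the other libraries of the 3 doses overlapped. An exact two-sided permutation of the library means gave p = 0.47 at 10 µM and p = 0.115 at 30 µM, where the smallest p that 924 arrangements allow is 0.00216. Within numbers, Tfrc was higher at 10 µM than in control in 4 of 6 numbers and higher at 30 µM in 1 of 6, with exact two-sided sign flip p-values of 0.5 and 0.156 (smallest possible 0.0313). Leaving out 30 µM replicate 4 gave a permutation p of 0.0498 at 30 µM, with a difference of -22.1 CPM against -19.1 CPM with all libraries.

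Without the 3 libraries over 5% the means of Tfrc lay close together, at 119 ± 3.19, 118 ± 6.10 and 116 ± 7.49 CPM from control to the higher dose (SD, n = 5 each). The exact permutation p-values were then 0.738 and 0.421. The log2 fold change at 30 µM was -0.23 with all libraries (95% interval -0.47 to 0.015) and -0.048 without the 3 (interval -0.15 to 0.055). At 10 µM it was -0.093 and -0.019 (interval without the 3, -0.12 to 0.084). Most of the lower mean of Tfrc at 30 µM therefore rested on 2 libraries, and the 15 others placed the change at either dose between -0.15 and 0.084 on the log2 scale.

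Steap3 and Slc11a2 act after the receptor in the endosome, and neither passed the test. Steap3 (ENSMUSG00000026389, chr1:120118487-120200435, minus strand) held a lowest, median and highest level of 32.1, 36.7 and 39.6 CPM in control, 32.3, 35.2 and 39.6 CPM at 10 µM, and 30.9, 35.8 and 41.8 CPM at 30 µM. The 3 ranges covered each other almost wholly. Against control it changed by -0.015 ± 0.079 (log2, SE) at 10 µM and by 0.00028 ± 0.079 at the higher dose, and without the 3 libraries it was -0.0085 ± 0.071 and -0.028 ± 0.071. In each of the 4 numbers with both libraries at most 5% unaligned, Steap3 was lower at 30 µM than in control, by 0.012 to 0.19 on the log2 scale. This was not tested, and with 4 numbers the smallest p that exact two-sided sign flips allow is 0.125. Slc40a1 likewise had 1 direction in all 4 such numbers, higher at 10 µM. Slc11a2 (ENSMUSG00000023030, chr15:100285776-100322953, minus strand) ranged from 37.5 to 48.2 CPM in control, from 39.9 to 46.1 CPM at 10 µM and from 41.9 to 44.7 CPM at 30 µM. The control range spanned both uracil ranges. Its log2 fold changes, 0.0012 ± 0.061 and 0.014 ± 0.061, included the value closest to 0 among the 9 genes at 10 µM, and without the 3 libraries they were 0.028 ± 0.059 and 0.033 ± 0.059.

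The ferritin chains had fold changes of opposite sign with dose, and neither passed the test. Fth1 (ENSMUSG00000024661, chr19:9957911-9962462, plus strand), the heavy chain that oxidises iron as it enters the shell, held a lowest, median and highest level of 187, 212 and 343 CPM in control. At 10 µM it held 156, 204 and 231 CPM, and at 30 µM 182, 198 and 289 CPM. The control and 30 µM maxima were again the libraries with the most unaligned pairs. Its log2 fold changes of -0.25 ± 0.14 at 10 µM and -0.15 ± 0.14 at 30 µM became -0.14 ± 0.091 and -0.12 ± 0.091 without the 3 libraries. Ftl1 (ENSMUSG00000050708, chr7:45107367-45109308, minus strand), the light chain, held 1171, 1650 and 1762 CPM in control, 1449, 1659 and 1797 CPM at 10 µM, and 1572, 1743 and 1799 CPM at 30 µM. The lowest library of each dose was the one over 5%. Its log2 fold changes were 0.061 ± 0.085 and 0.11 ± 0.085 with all libraries, and 0.019 ± 0.041 and 0.049 ± 0.041 without the 3.

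The ferritin counts carry an extra doubt, since both genes have near-identical copies in the genome and read pairs that aligned to several places were left uncounted by the authors. The table has 16 rows for ferritin-like genes and pseudogenes beside Fth1 and Ftl1. Of these, 10 had no count in any library and the other 6 held 1378 counts in all, beside 52580 for Fth1 and 430329 for Ftl1. Reads lost to the copies cannot be counted from this table.

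Slc40a1 (ferroportin), the exporter, and Hmox1, which breaks down haem, gave no call either. Slc40a1 (ENSMUSG00000025993, chr1:45947211-45965683, minus strand) had 1.05, 1.28 and 2.96 CPM as its lowest, median and highest control values, 1.28, 1.78 and 2.85 CPM at 10 µM, and 1.196, 1.70 and 2.32 CPM at 30 µM. All 3 maxima were the libraries over 5%. On the log2 scale it differed from control by 0.35 ± 0.26 at the lower dose and by 0.23 ± 0.27 at the higher, and by 0.33 ± 0.23 and 0.29 ± 0.23 without the 3 libraries. The 95% intervals without the 3 libraries reached from -0.15 to 0.81 and from -0.19 to 0.78. Hmox1 (ENSMUSG00000005413, chr8:75820241-75827217, plus strand) held 59.0, 89.5 and 92.9 CPM in control, 77.5, 87.2 and 98.3 CPM at 10 µM, and 72.0, 89.5 and 97.6 CPM at 30 µM, and each minimum was a library over 5%. Its log2 fold changes lay between 0.0018 and 0.061 in the fits with and without those libraries.

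Of the iron regulatory proteins, Ireb2 (ENSMUSG00000032293, chr9:54770970-54820011, plus strand) differed most between fits. It held 36.2, 43.3 and 176 CPM as its lowest, median and highest control values, 36.02, 42.5 and 129 CPM at 10 µM, and 29.7, 37.0 and 104 CPM at 30 µM. The highest value of each dose was the library over 5%, and the 5 other libraries of each dose overlapped with those of the other doses. With all libraries its log2 fold change at 30 µM was -0.46 ± 0.45. Without the 3 libraries the mean levels of control, lower and higher dose were 44.1 ± 8.83, 41.1 ± 5.45 and 35.8 ± 4.17 CPM (SD, n = 5 each). The log2 fold change was then -0.31 ± 0.13 (95% interval -0.58 to -0.046), with an unadjusted p of 0.0245 and an adjusted p of 0.944 in edgeR's test. In that fit 4.33% of all genes had an unadjusted p under 0.05. Ireb2 was lower at 30 µM in 2 of the 4 numbers that had both libraries. Aco1 (ENSMUSG00000028405, chr4:40142998-40199010, plus strand), whose protein is an enzyme when it holds an iron-sulfur cluster and an RNA-binding protein when it does not, held 105, 111 and 119 CPM in control, 99.2, 110.5 and 117 CPM at 10 µM, and 101, 115 and 123 CPM at 30 µM. Its log2 fold changes lay between -0.017 and 0.046 in the same 2 fits.

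**Figure D3:**
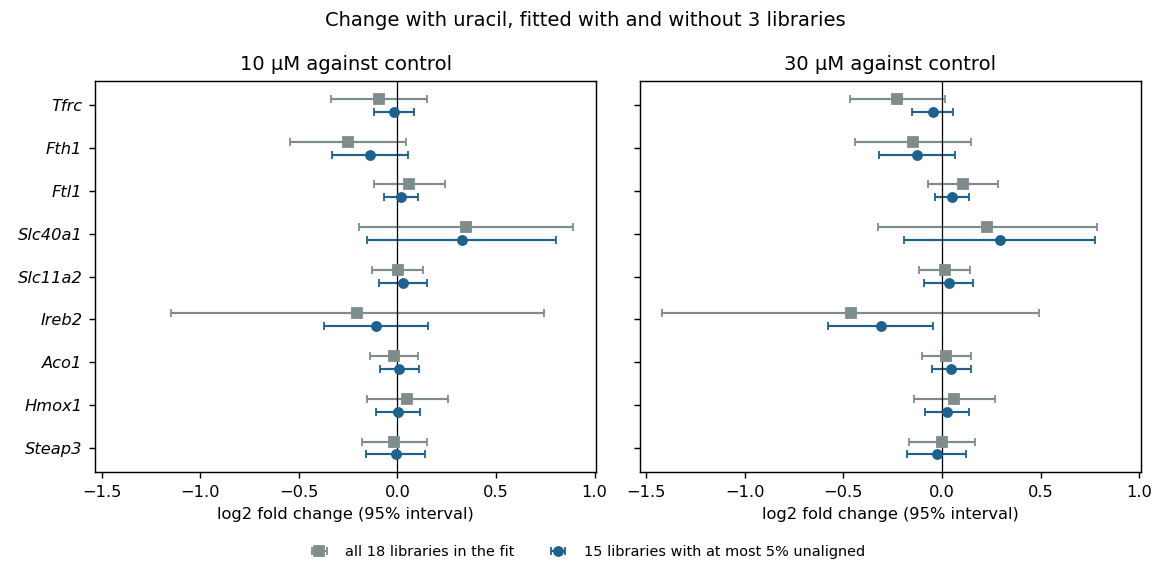
Log2 fold change of each iron handling gene at 10 µM and 30 µM uracil against control with its 95% interval, from the fit of all 18 libraries (squares) and from the 15 libraries with at most 5% unaligned (circles). All intervals include 0 except that of Ireb2 at 30 µM in the 15 libraries (-0.58 to -0.046), and the intervals of Tfrc and Ireb2 narrow most when the 3 libraries are left out.

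The other genes of iron handling and of the linked NRF2 and hypoxia pathways gave no call with dose. Of 93 such genes in 7 lists, 81 passed the filter, and 0 of the 81 passed the adjusted test in any dose comparison, beside 0% of all genes. The lists covered transferrin uptake, ferritin chaperones and ferritin breakdown, control of the iron regulatory proteins with cytosolic iron-sulfur assembly, mitochondrial iron-sulfur assembly, haem synthesis and breakdown, NRF2 targets and the hypoxia response. Their median log2 fold change at 30 µM lay between -0.045 (12 NRF2 genes) and 0.076 (10 hypoxia genes), beside 0.012 over all genes. Without the 3 libraries it lay between -0.038 (8 genes of transferrin uptake) and 0.075 (the hypoxia genes), and again 0 genes passed.

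In the fit of all libraries, none of the 9 genes passed the test for the replicate number. In an additive model of dose and number, 0 of the 9 passed an adjusted p of 0.05, beside 12.6% of all genes (1745). That background rose to 3498 genes without control replicate 1 and to 3271 without control replicate 6. The smallest adjusted p among them was 0.261, for Ireb2. Leaving out single libraries gave Ireb2 an adjusted p between 0.0228, without control replicate 1, and 0.578. Without the 3 libraries 1 of the 9 passed, beside 20.8% of all genes: Steap3, with an adjusted p of 0.0455. Its mean over these libraries was 37.6, 37.8, 34.6, 31.9, 35.0 and 32.1 CPM for numbers 1 to 6, the last from 1 library. Of the 81 other genes, 10 passed with all libraries, a share close to that of all genes. They were 5 of the 59 genes (8.47%) in the 5 iron lists and 5 of the 10 hypoxia genes. The iron genes included Slc39a8, which encodes an importer of zinc and iron (adjusted p = 1.78e-06). It lay between 4.00 and 6.75 CPM in the libraries of numbers 1 to 3 with at most 5% unaligned, and between 11.7 and 15.8 CPM in those of numbers 4 to 6. Cp, which encodes the iron oxidase ceruloplasmin (adjusted p = 0.044), Slc25a37, the mitochondrial iron importer (0.0312), the haem exporter gene Flvcr1 (0.0162) and Alad, an enzyme of haem synthesis (0.0353), also passed. The hypoxia genes were led by Ndrg1 (4.11e-05), Adm (0.000197) and Pdk1 (0.000208). Cell type markers moved with the number as well. Of the epithelial and mesothelial markers tested, 4 of 6 passed (Upk3b, Msln, Wt1 and Krt19, smallest adjusted p 1.81e-10), as did 5 of the 10 fibroblast markers (smallest 2.02e-07) and the muscle marker Acta1 (0.00227). In the libraries with at most 5% unaligned, the summed epithelial and mesothelial markers lay between 102.8 and 121 CPM in numbers 1 to 3 and between 193 and 265 CPM in numbers 4 to 6, a split chosen after the values were seen. The summed fibroblast markers lay between 29816 and 32652 CPM and between 28414 and 33131 CPM in the same order. The share of read pairs with too low an alignment quality also split by these numbers. It lay between 4.79% and 7.17% in all libraries of numbers 1 to 3, and between 7.76% and 13.1% in those of 4 to 6. The part of these markers and of this share in the counts for number was not tested.

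In the 3 libraries over 5% unaligned, 5 of the 9 iron genes differed from the rest. This comparison, added after the data had been seen, set those 3 libraries against the 15 others with dose in the model. It called 5018 of 13865 genes (36.2%), of which 2764 (19.9%) were higher and 2254 (16.3%) lower in the 3. With library totals alone in place of TMM the split was 2034 higher and 4103 lower, and the median over all genes moved from -0.028 to -0.15. Of the iron genes, 3 were higher and 2 lower. Tfrc, Slc11a2, Aco1 and Steap3 did not pass. The median log2 difference was -0.0027 for the 9 genes.

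Ireb2 rose most. Its level was 176 CPM in control replicate 1. It was 129 CPM for replicate 6 of the 10 µM dose, 104 CPM for replicate 6 of the 30 µM dose and between 29.7 and 58.6 CPM in the 15 others. The 3 libraries therefore lay 4.37, 3.20 and 2.58 times above the mean of the others. Its log2 difference was 1.73 ± 0.11 (SE), with an adjusted p of 6.87e-10 in edgeR's quasi-likelihood test. All 3 lay above all 15 others, as was the case for 11.7% of all genes tested. Slc40a1 rose by 0.78 ± 0.24 on the log2 scale (adjusted p = 0.0135), from between 1.05 and 2.25 CPM to between 2.32 and 2.96 CPM. That call did not hold when control replicate 1 (adjusted p = 0.0547) or 10 µM replicate 6 (adjusted p = 0.0752) was left out, and the other alternatives gave 0.00744 to 0.0344. Fth1 rose by 0.47 ± 0.10 (adjusted p = 0.0011), with 343 and 289 CPM in control replicate 1 and 30 µM replicate 6, but 10 µM replicate 6 at 211 CPM lay inside the range of the others.

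Ftl1 and Hmox1 fell. Ftl1 held 1171 CPM in the control library, 1449 CPM in the 10 µM library and 1572 CPM in the 30 µM library, all under the 1598 to 1799 CPM of the other 15, and its log2 difference was -0.29 ± 0.061 (adjusted p = 0.000896). Hmox1 held 59.0, 77.5 and 72.0 CPM in the same order, under the 80.2 to 98.3 CPM of the others, with a log2 difference of -0.37 ± 0.070 (adjusted p = 0.000343). All 3 libraries lay below all others for 6.30% of all genes. The chains of ferritin thus differed in sign in these libraries. Tfrc went both ways, with control replicate 1 1.42 times above the mean of the others, 10 µM replicate 6 at 1.05 times and 30 µM replicate 6 at 0.588 times, so that its mean difference of -0.0083 ± 0.13 joins 2 libraries that lay apart in opposite directions. Without 30 µM replicate 6 the difference of Tfrc was 0.27 and passed (adjusted p = 0.0135), and without control replicate 1 it was -0.27 (adjusted p = 0.0728). Aco1 gave a difference of -0.12 ± 0.058 (adjusted p = 0.104), which passed without control replicate 1 (-0.18, adjusted p = 0.0326) and with library totals alone (-0.25, adjusted p = 0.00262), in a range of adjusted p up to 0.328 without 10 µM replicate 6.

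Other values moved with these libraries. The share of read pairs aligned to several places was 5.59% in the control library, 13.9% in the 10 µM library and 6.46% in the 30 µM library of the 3, and 17.4% to 20.2% in the others. The share that fell outside annotated genes was 9.73%, 13.3% and 15.5% in the same order, and 6.85% to 8.66% in the others. The summed fibroblast markers lay between 31424 and 60956 CPM in the 3 and between 28414 and 33131 CPM in the others. Of the 10 markers, 5 had a positive and 5 a negative log2 difference (median -0.10), and only Col1a1 passed, as higher. The summed macrophage markers lay between 1.39 and 2.15 CPM in the 3 and between 1.77 and 7.57 CPM in the others. The part of these shares and markers in the iron gene values was not tested. The study's methods state that a vehicle sample and a 30 µM sample were left out of its analysis for contamination with human RNA. The labels do not say which. Control replicate 1 and 30 µM replicate 6 were the only libraries of those arms with over 5% unaligned.

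**Figure D4:**
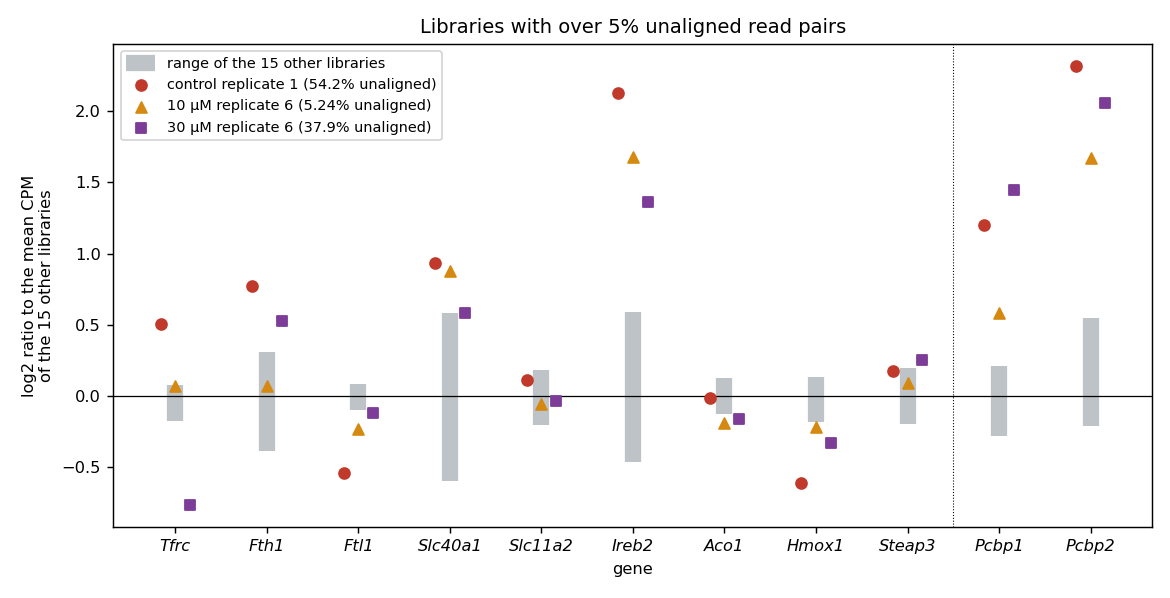
Log2 ratio of the level (CPM) in each of the 3 libraries with over 5% unaligned to the mean of the 15 others, for the 9 iron handling genes and, right of the dotted line, the ferritin iron chaperones Pcbp1 and Pcbp2. Grey bars are the range of the 15 others, each against the mean of the other 14. Ireb2, Pcbp1 and Pcbp2 lie above their grey bar in all 3 libraries, Ftl1 and Hmox1 lie below theirs, and Tfrc lies above in control replicate 1 and below in 30 µM replicate 6.

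In the same comparison 33 of the 81 other iron, NRF2 and hypoxia genes passed, 13 higher and 20 lower, beside 36.2% of all genes. Among the 12 genes for control of the iron regulatory proteins and cytosolic iron-sulfur assembly, 5 passed and all 5 were lower, beside 16.3% of all genes called lower. Every other list held a gene called higher, and the ferritin chaperone list had 3 higher and 1 lower. Pcbp2 and Pcbp1, which encode RNA-binding proteins that also hand iron to ferritin, are named here after their values were seen. Pcbp2 lay between 209 and 327 CPM in the 3 libraries and between 57.0 and 92.9 CPM in the others, a log2 difference of 2.02 ± 0.11 (adjusted p = 7.41e-11). Pcbp1 lay between 110.1 and 200.2 CPM against 61.2 to 84.4 CPM, a difference of 1.103 ± 0.106 (adjusted p = 9.94e-08).

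The pattern of each gene over the 15 libraries was compared with that of all tested genes of at least 10 CPM, by Pearson's r of log2 CPM. These correlations share libraries and sequencing depth and are a description only. Those most like Tfrc were Pik3c2a (r = 0.867), Chm (0.853) and Rhobtb3 (0.851). Those most like Ireb2 were Usp34 (0.95), Pcbp2 (0.931) and Nfat5 (0.926). Of the 15 libraries, control replicate 3 held the highest level of both Ireb2 (58.6 CPM) and Pcbp2 (92.9 CPM). In the 3 libraries over 5%, which were not used to choose these genes, Usp34 and Nfat5 were also higher. Their log2 differences were 1.19 (adjusted p = 2.03e-08) and 2.16 (adjusted p = 3.49e-10) in edgeR's test, where 19.9% of all genes were called higher. The genes most like other members were mixed there. Stx4a (0.56) went with Fth1 and Rpl11 (-0.41) with Ftl1. Cdk2ap2 (-0.48) went against Slc40a1, Mcrip1 (0.11) against Hmox1, and Dennd2b was higher (0.53) while Slc11a2 did not pass. Those most like Fth1 were Znhit6 (0.935), Stx4a (0.933) and Fam50a (0.92), and those most like Ftl1 were Ndufa2 (0.9), Rpl11 (0.853) and Selenoh (0.84). For Hmox1 they were Mcrip1 (0.925), Cdk5rap1 (0.903) and Epha1 (0.877), and for Aco1 they were Rpsa-ps10 (0.892), Tcf19 (0.878) and Ctr9 (0.855). Slc11a2 was most like Dennd2b (0.868), Septin5 (0.815) and Gpc6 (0.809), Steap3 was most like Gas2 (0.835), Chst7 (0.826) and Chst12 (0.823), and Slc40a1, at its low counts, was most like Cdk2ap2 (0.809), Flad1 (0.767) and Tpst1 (0.724). No gene of the 9 was among the 3 most like any other. Between the 9 genes the 36 pairwise values ran from -0.655 (Fth1 with Aco1) to 0.653 (Fth1 with Hmox1), with 14 above 0 and a median of -0.107.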

How the data were processed

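Total RNA of MEFs was sequenced after ribosomal RNA depletion with a stranded kit. The authors deposited raw counts of read pairs per Ensembl gene in 1 table of 18 columns. The submitters' processing notes name FastQC, HISAT2, SAMtools 1.2 and HTSeq, and the build GRCh38, which is human although the identifiers are mouse. The annotation release and the strand setting are not given in the sources used here, so reads from antisense partners, which overlap Tfrc, Fth1, Slc40a1 and Slc11a2, cannot be told apart. The 5 rows that name no gene were left out of library sizes. Symbols, positions and transcripts were taken from GENCODE M39 (GRCm39).

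Counts were tested with edgeR 4.0.16 in R 4.3.3 (TMM scaling, the default filter on low counts by dose, robust quasi-likelihood fit, dose as the only term, all 18 libraries). Benjamini-Hochberg adjustment covered all genes tested, with a threshold of 0.05. Levels are TMM-scaled CPM, and log2 CPM used a prior count of 2. Replicate number was tested beside dose. The 3 libraries over 5% unaligned were left out in another fit and, in one more, compared with the rest. The counting error of a gene was set by its own counts in each library, and intervals named as 95% come from the fit. The means of Tfrc were tested by exact permutation. The tests were tested on simulated data.

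Named beside the 9 genes were list genes past the threshold (at most 5 per list for dose and 3 for number), and the 3 genes most like each member. The members and lists were chosen with earlier results of these data known. Alternatives were DESeq2 1.42.0, limma 3.58.1 (voom), other scalings and filters, a replicate block, and leaving out libraries.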

Additional observations from a re-analysis of the deposited data

Results flagged for a closer look

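The level of each of the 9 genes was examined for a library far from the other 5 of its dose, by the gap to the nearest library as a share of the whole range, against Dixon's critical value for 6 libraries. Of 27 groups, 9 passed, where chance passes about 1 in 20 groups, or 1.35 of 27. All 9 were libraries over 5% unaligned: 5 in control replicate 1, 3 for replicate 6 of the 30 µM dose and 1 for replicate 6 of the 10 µM dose. The rule was not applied to all genes, so no share over all genes can be set beside these 9. In the comparison of the 3 libraries over 5% with the rest, 36.2% of all genes were called. For 18% of all genes, all 3 lay above or below all others.

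Ireb2 stood apart at every dose, with 176 CPM in control replicate 1, while replicate 6 held 129 CPM at 10 µM and 104 CPM at 30 µM. Tfrc stood above the other control libraries in control replicate 1 (167 CPM, others 115 to 123 CPM) and below the other 30 µM libraries in 30 µM replicate 6 (69.2 CPM, others 105 to 123 CPM). Fth1 stood above its group in control replicate 1 (343 CPM, others 187 to 245 CPM) and in 30 µM replicate 6 (289 CPM, others 182 to 214 CPM). Ftl1 (1171 CPM, others 1623 to 1762 CPM) and Hmox1 (59.0 CPM, others 86.0 to 92.9 CPM) stood below theirs in control replicate 1. No other library of the 18 was singled out for any of the 9 genes. The rule could not single out a library that lay beside a farther one, because the farther one sets the range. For Ireb2, control replicate 3 (58.6 CPM) lay between control replicate 6 (45.9 CPM) and control replicate 1 (176 CPM). Whether control replicate 3 stood apart from the lower control libraries was therefore not tested.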

How the results depend on the processing

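The 0 calls in each dose comparison, 30 µM against 10 µM and the test of any dose included, stayed at 0 under every alternative run, and no log2 fold change of the 9 genes with dose passed the threshold in any of 540 alternative values. The count of genes called for replicate number moved from 1745 to 2989 in DESeq2, 5959 in limma voom with quality weights, 2755 in the numbers with no library over 5%, 2890 without the 3 libraries over 5% and 3287 without control replicate 1 and 30 µM replicate 6. Leaving out 1 library gave 1272 to 3498. In voom, 43% of all genes were called for replicate number. Ireb2 (adjusted p = 0.00821), Hmox1 (0.0176), Slc40a1 (0.0224) and Steap3 (0.0373) were among them. The difference in mean Tfrc level at 30 µM against control lay between -22.1 and -11.1 CPM when 1 library was left out. The causes were not tested.

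Some log2 fold changes changed sign. None of those with dose was called under the alternative. At 10 µM these were Ftl1 (-0.012), Ireb2 (0.34), Hmox1 (-0.026) and Steap3 (0.012) without control replicate 1 and 30 µM replicate 6, Aco1 with voom (0.016), no filter (0.00017) and without the 3 libraries (0.010), Steap3 with no filter (0.0013), and Slc11a2 with RLE size factors (-0.0005979). At 30 µM, Slc11a2 gave -0.00697 with library totals. Steap3 gave -0.000706 in DESeq2, -0.0034 with at least 10 counts in every library, -0.027 with library totals, -0.038 with voom, -0.00107 with only the groups compared, -0.028 without the 3 libraries and -0.023 without control replicate 1 and 30 µM replicate 6. For the libraries over 5%, Slc11a2 gave 0.0012 with RLE.

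Leaving out 1 library changed signs at 10 µM for Aco1 (-0.036 to 0.016), Ftl1 (-0.016 to 0.10), Hmox1 (-0.031 to 0.087), Ireb2 (-0.63 to 0.33), Slc11a2 (-0.034 to 0.040) and Steap3 (-0.049 to 0.012). It did so at 30 µM for Aco1 (-0.0049 to 0.052), Hmox1 (-0.020 to 0.11), Ireb2 (-0.82 to 0.070), Slc11a2 (-0.021 to 0.053) and Steap3 (-0.044 to 0.046). It also did so in the comparison of the libraries over 5% for Slc11a2 (-0.051 to 0.038) and Tfrc (-0.27 to 0.27), where the value of 0.27, without 30 µM replicate 6, passed the threshold (adjusted p = 0.0135).

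With replicate number as a block, 0 genes were again called with dose. The main fit did not take the numbers as pairs, since not every same-numbered pair of libraries correlated above 0.1. Of 18 such pairs 16 did (r from -0.10 to 0.71). The others were control replicate 1 with replicate 1 of the 10 µM dose (r = -0.10) and of the 30 µM dose (r = -0.034). Without the 3 libraries over 5%, 12 of 13 pairs did (lowest r 0.0036). With all libraries, 14 of 18 correlated best with their own number. The block allows for this likeness, which the main fit leaves out. Under the block, signs changed for Steap3 at 30 µM (-0.0059, -0.085 without the 3 libraries and -0.096 in complete numbers), for Slc11a2 at 10 µM (-0.021 and -0.033 in the same 2 subsets) and at 30 µM (-0.015 and -0.0033), and in the libraries over 5% for Tfrc (0.079) and Slc11a2 (0.099).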
